A study of Homo sapiens with 6 samples.

Results

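Entry into the cell cycle from G1 is controlled by a small group of genes: the D-type cyclins CCND1, CCND2 and CCND3, the E-type cyclins CCNE1 and CCNE2, the kinases CDK4, CDK6 and CDK2, the inhibitor CDKN1B (p27) and the retinoblastoma gene RB1. These 10 genes were described in SW403 cells, labelled as an established line of human colon adenocarcinoma, with and without knockdown of IRS2. They are 10 of the 26490 gene symbols in the count table, and all 10 were among the 13832 genes expressed highly enough to be tested. The genes were taken by name, and the set was selected on a readout of this same comparison, the rise of CCND1 beside the fall of S-phase genes such as MCM5. Their differences are therefore given as a description, with no p-value.

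D-type cyclins carry growth signals to the cell cycle machinery: they are made when receptors signal, bind CDK4 or CDK6, and start the phosphorylation of RB1. RB1 and its relatives RBL1 and RBL2 hold E2F transcription factors in check, and phosphorylation releases E2F to switch on genes for DNA synthesis, cyclin E among them. Cyclin E with CDK2 continues the phosphorylation, and CDKN1B blocks cyclin E-CDK2 while it can also sit on, and help to assemble, cyclin D-CDK4 complexes. IRS2 is an adaptor that connects the insulin and IGF1 receptors to the PI3K and AKT kinases, and AKT acts on CDKN1B both directly and through FOXO factors. In the intestine CCND1 is known as a target of Wnt signalling.

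The 3 control libraries came from SW403 cells with normal IRS2, whose genotype label reads WT, and the 3 knockdown libraries from SW403 cells with IRS2 knocked down. All cultures were kept for 24 h in DMEM with 10% fetal bovine serum and no treatment was given. The titles call the second group knockdown, whereas its sample descriptions read IRS2KO and those of the controls read NS. The titles are followed here. How IRS2 was lowered, which control construct was used and whether each group is 1 line or several are not given in the sources used here. The labels call the libraries biological replicates seeded in triplicate, so p-values measure the spread between these cultures. Libraries held 11816973 to 12585013 counts in control and 14329348 to 18114656 in knockdown, so every knockdown library was deeper. IRS2 itself fell by 1.39 on the log2 scale (SE 0.07, edgeR adjusted p 3.12e-11). Of 10 colon epithelial markers, 5 passed the expression filter (EPCAM, KRT8, KRT18, CDX2 and VIL1), KRT20 and CDX1 had no counts, and CDH1, LGALS4 and GPA33 were below 1 CPM on average in both groups. The markers thus match the label in part only, and the identity of the line was not checked in another way. Leukocyte and endothelial markers did not pass the filter in any case (0 of 5 and 0 of 4 genes). Of the 5 fibroblast markers, 3 passed the filter. Their summed level over all 5 genes was 8.72 to 20.7 CPM in control and 5.74 to 6.85 CPM in knockdown. COL1A1 was at 15.3 CPM in control replicate 1 and at 3.63 to 5.73 CPM in the other libraries. The part of these cells or transcripts in the results was not tested.

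In the knockdown, CCND1, CDK6 and CDKN1B were higher and CCND2, CCND3, CCNE1, CCNE2, CDK2 and CDK4 were lower, while RB1 lay at the same level in both groups. That is 3 genes past the threshold upward and 6 downward, where 19.3% of all tested genes passed upward, 19.2% downward and 38.5% in either direction. The CPM values of the groups did not overlap for 9 of the 10 genes, against 48.4% of all tested genes. Because this contrast chose the set, nothing is read from these counts. In bulk RNA, a change in the share of cells in a phase of the cycle and a change in RNA per cell cannot be told apart.

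**Figure D1:**
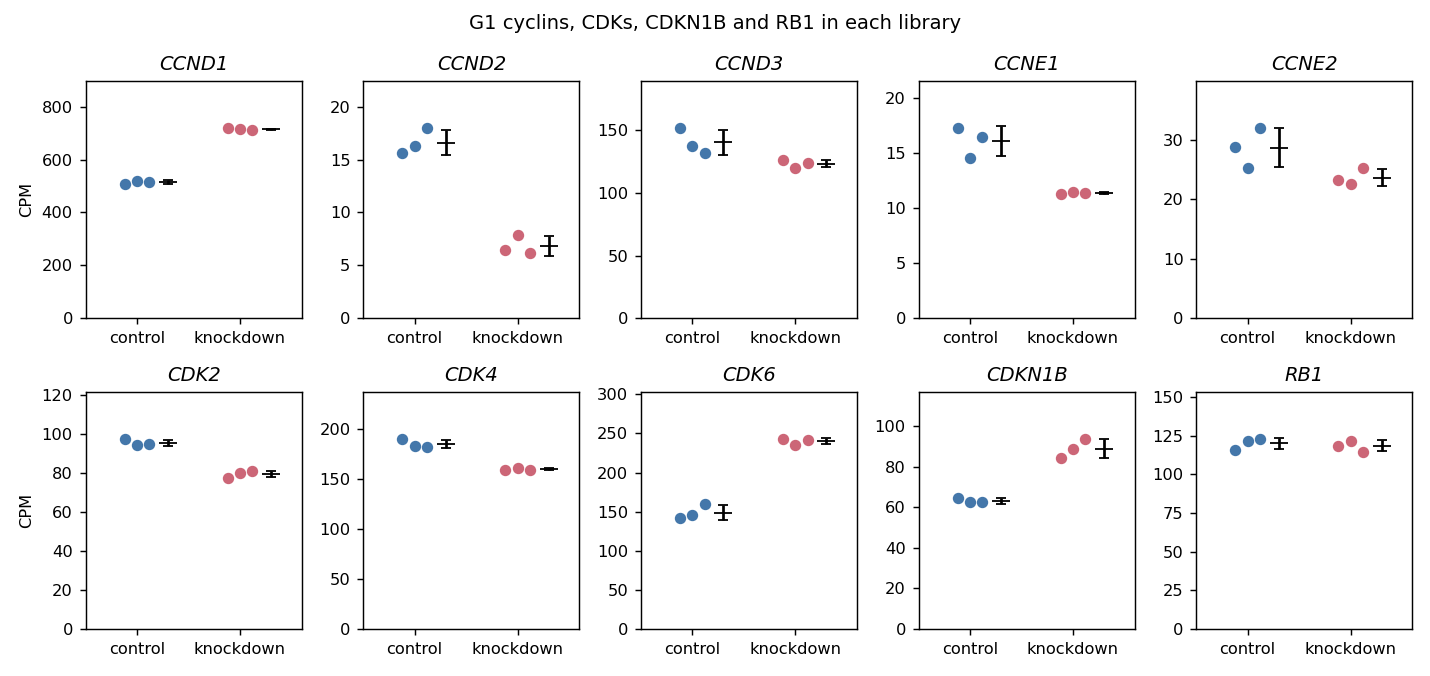
CPM of each of the 10 genes in the 3 control libraries (blue) and the 3 knockdown libraries (red), on a linear axis that starts at 0, with the mean and SD of each group in black. CCND1, CDK6 and CDKN1B lie higher in knockdown, RB1 overlaps, and the other 6 genes lie lower.

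Short pieces of sequence are shown first for a gene of the set and for downstream genes whose promoters carry the words through which MYC, E2F and MuvB factors are known to act. RefSeq promoters on GRCh38.p14, each 250 bases before to 50 after an annotated start, were matched for 6 of the 10 genes (CCND3, CCNE1, CDK4, CDK6, CDKN1B and RB1). CCND1, CCND2, CCNE2 and CDK2 had no entry in that table. Some genes have several promoters in the table, and a gene was counted if any of them held the letters. The letters CACGTG, the E-box that MYC binds, were found in 2 of these 6 genes, CDK4 and CDK6, and in 8.78% of all 27305 genes (7.26% of all 35116 promoters). The CDK4 promoter held 3 of them, all before the start, on chromosome 12 with the gene on the minus strand. Capitals mark the E-box, each window reads 5′ to 3′ along the gene, and the first names give the distance before the start.
CDK4 at 216 bases, chr12:57752510-57752537: tgtcaagcggtCACGTGtgatagcaaca
CDK4 at 196 bases, chr12:57752490-57752517: tagcaacagatCACGTGgctgccatcgc
CDK4 nearest the start, chr12:57752395-57752422: tgggtggcggtCACGTGcccagaacgtc

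The E2F word was searched as TTTCCCGC, TTTGGCGC, TTTCGCGC or TTTGCCGC on both strands, and the CHR element, to which MuvB complexes bind at genes of G2 and mitosis, as TTTGAA on both strands. None of the promoters of these 6 genes held either, which says only that these letters are not in these windows. The E2F word without its first letter, the TCF letters CTTTGAT and the AP-1 letters TGAGTCA or TGACTCA were in none of them either. The FOXO letters TGTTTAC were in 1 of the 6 genes, CCND3, against 4.19% of all genes. The E2F word was in 20 of the 31 genes of a G1/S and S-phase list with a promoter entry, against 3.99% of all genes (3.3% of all promoters). The CHR letters were in 11 of 17 genes of a G2 and mitosis list, against 18.2% of all genes (15.2% of all promoters). An example of each kind follows from the genes named in those lists, with the motif in capitals, in the gene's direction. In these lines the minus strand is the one opposite to the gene, whichever strand of the chromosome the gene is on.
PCNA, E2F word on the minus strand, 59 bases before the start: agcgtcagggGCGGGAAAaggcgtgcgt
UNG, E2F word 63 bases before a start: agggaggtttTTTGCCGCgaaaagacca
KIF23, CHR letters 55 bases before the start: tgattggcccgTTTGAAatgcgccaggc
TOP2A, CHR letters on the minus strand, 151 bases before the start: tgattggtttaTTCAAAcaaaccccggc

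The D-type cyclins moved apart. CCND1 (chromosome 11, GRCh37 69455924 to 69469242) was at 506, 521 and 515 CPM in the control libraries and at 718, 714 and 713 CPM in the knockdown libraries. Every knockdown library was above every control library, and the libraries within a group differed little, with a coefficient of variation of 1.42% in control and 0.34% in knockdown. The log2 fold change of CCND1 was 0.51 ± 0.03 (SE), or 1.42-fold, and 496 of the tested genes rose by more. CCND2 (chromosome 12, 4378937 to 4414519), a D-type cyclin with its own tissue pattern, had 196, 205 and 212 counts in control and 93, 134 and 111 in the deeper knockdown libraries. As CPM these are 15.6, 16.3 and 17.9 against 6.49, 7.85 and 6.13, so CCND2 was lower in each knockdown library. Its log2 fold change of -1.25 ± 0.11 (SE), a 2.38-fold lower level, was the largest difference in the set, and 471 tested genes fell by more.

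CCND3 (chromosome 6, 41902672 to 42018095), the third D-type cyclin, was at 152, 137 and 132 CPM in control and 126, 120.2 and 124 CPM in knockdown. Control replicate 1 was the highest library, and the other controls lay closer to the knockdown libraries without overlapping them. The log2 fold change of CCND3 was -0.16 ± 0.04 (SE), and it was -0.10 and past the threshold no longer when control replicate 1 was left out. It also missed the threshold without knockdown replicate 2, at -0.14.

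Levels of different genes were compared per kilobase of transcript. CCND1 made up 60.7%, 63.6% and 64.1% of the summed D-type cyclin level (CPM per kilobase) in the control libraries and 72.8%, 73.6% and 73.0% in the knockdown libraries. CCND3 supplied nearly all of the remainder, with a share of 35.9% ± 1.92 in control and 26.4% ± 0.443 in knockdown (SD, n = 3 each). The share of CCND2 was 1.33% ± 0.122 in control and 0.456% ± 0.0633 in knockdown (SD, n = 3 each), so the gene with the largest fold change was the smallest part of the family. The 3 genes together were at 193 ± 3.63 CPM per kilobase in control and 231 ± 1.79 in knockdown (SD, n = 3 each), 1.19-fold higher.

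The kinases that D-type cyclins bind differed in direction. CDK6 (chromosome 7, 92234235 to 92465887) was at 141, 146 and 159 CPM in control and 243, 236 and 242 CPM in knockdown, without overlap. Its log2 fold change was 0.72 ± 0.04 (SE), or 1.65-fold, the largest rise in the set, and 196 tested genes rose by more. CDK4 (chromosome 12, 58141510 to 58149796), which shares the cyclin D partners of CDK6, was at 189, 183 and 182 CPM in control and 159, 161 and 158 CPM in knockdown. The log2 fold change of CDK4 was -0.18 ± 0.03 (SE), small beside that of CDK6, and again the groups did not overlap.

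Although CDK6 had more CPM than CDK4 in the knockdown libraries, its canonical transcript is 11663 nt long and that of CDK4 is 1865 nt. Per kilobase, CDK6 was 10.7%, 11.3% and 12.3% of the 2 kinases in the control libraries and 19.6%, 19.0% and 19.6% in the knockdown libraries. The level of CDK4 per kilobase was 7.79 ± 0.619 times that of CDK6 in control and 4.15 ± 0.0985 times in knockdown (SD, n = 3 each). Both kinases summed to 111.8 ± 1.63 CPM per kilobase in control and 106.1 ± 0.345 in knockdown (SD, n = 3 each). The ratio of summed D-type cyclins to summed CDK4 and CDK6 was 1.73 ± 0.0224 in control and 2.18 ± 0.0204 in knockdown (SD, n = 3 each). Both values rest on the division by length. Without it the kinases summed to 333.5 ± 6.71 CPM in control and 399 ± 2.79 in knockdown, so the direction of the sum turned, and the ratio was 2.01 ± 0.056 and 2.12 ± 0.0095 (SD, n = 3 each).

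**Figure D2:**
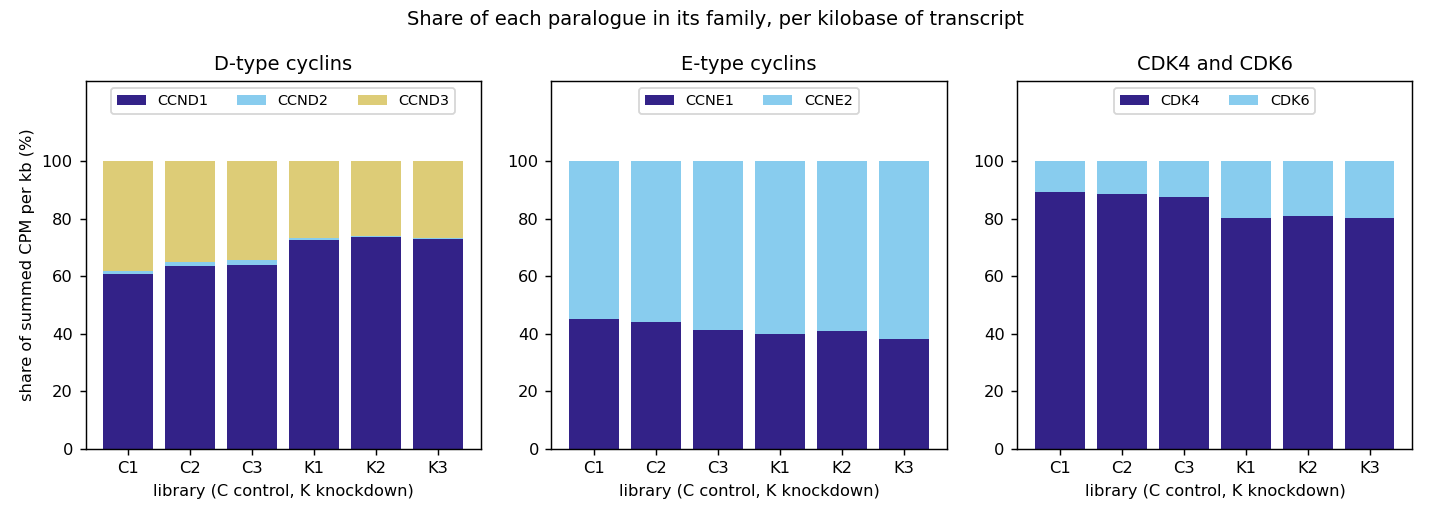
Share of each paralogue in the summed CPM per kilobase of its family, in percent, for the D-type cyclins, the E-type cyclins and the CDK4 and CDK6 pair, with 1 bar for each control (C) and knockdown (K) library. CCND1 grows from 62.8% to 73.1% of the D-type cyclins and CDK6 from 11.4% to 19.4% of its pair on average, while CCNE1 is at 43.5% and 39.7% of the E-type cyclins.

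Cyclin E and its kinase were lower together. CCNE1 (chromosome 19, 30302898 to 30315219) was at 17.2, 14.6 and 16.5 CPM in control and at 11.3, 11.5 and 11.4 CPM in knockdown. The 3 knockdown libraries were nearly equal and all lay below control, with a log2 fold change of -0.47 ± 0.09 (SE). CCNE2 (chromosome 8, 95891998 to 95908906), the second E-type cyclin, was at 28.8, 25.3 and 31.9 CPM in control and 23.2, 22.6 and 25.2 CPM in knockdown. Here the groups nearly touched, at control replicate 2 and knockdown replicate 3. The log2 fold change of CCNE2 was -0.24 ± 0.08 (SE), and it missed the threshold in DESeq2's Wald test and when control replicate 1, control replicate 3, knockdown replicate 1 or knockdown replicate 2 was left out, with a value of -0.16 without control replicate 3.

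CCNE1 held 43.5% ± 1.87 of the summed E-type cyclin level per kilobase in control and 39.7% ± 1.44 in knockdown (SD, n = 3 each). The 2 genes together were at 19.0 ± 1.81 CPM per kilobase in control and 14.7 ± 0.491 in knockdown (SD, n = 3 each). CDK2 (chromosome 12, 56360565 to 56366573), the kinase of both E-type cyclins, was at 97.3, 94.3 and 94.8 CPM in control and 77.5, 79.7 and 80.7 CPM in knockdown. Each knockdown library was lower by more than the spread of either group, and the log2 fold change was -0.24 ± 0.04 (SE).

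CDKN1B (chromosome 12, 12838432 to 12875303), whose product p27 inhibits cyclin E-CDK2, was at 64.8, 62.4 and 62.5 CPM in control and 84.6, 88.8 and 93.7 CPM in knockdown. All knockdown libraries were higher, with more spread among them than among the controls, and the log2 fold change was 0.53 ± 0.05 (SE), or 1.44-fold. Per kilobase, the level of CDKN1B was 0.616 ± 0.00282 of that of CDK2 in control and 1.04 ± 0.0331 in knockdown (SD, n = 3 each). Against the summed E-type cyclins the ratio was 1.39 ± 0.129 in control and 2.52 ± 0.0805 in knockdown (SD, n = 3 each). The size of both ratios rests on the transcript used for length. With the longest annotated transcripts they were 0.397 and 0.672 against CDK2, and 0.871 and 1.59 against the E-type cyclins, in control and knockdown. Both were again higher in knockdown. These are ratios of RNA, and p27 is known to be controlled largely through its stability as a protein.

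RB1 (chromosome 13, 48877880 to 49173572), which encodes the pocket protein that cyclin D-CDK4 and cyclin D-CDK6 phosphorylate, was at 116, 122 and 123 CPM in control and 119, 122 and 115 CPM in knockdown. The groups overlapped, and the log2 fold change of 0.01 ± 0.04 (SE) had a 95% interval of -0.07 to 0.09. Its sign was not the same in every alternative, which gave -0.02 to 0.03. RB1 had a mean of 120.1 CPM in control and 119 CPM in knockdown.

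The order of the mean levels per kilobase was the same in both groups, apart from CDKN1B and CDK2. In control it ran CCND1 (121 ± 1.72), CDK4 (99.1 ± 2.16), CCND3 (69.3 ± 4.96), CDK2 (42.6 ± 0.716), CDKN1B (26.2 ± 0.548), RB1 (25.2 ± 0.777), CDK6 (12.8 ± 0.799), CCNE2 (10.7 ± 1.23), CCNE1 (8.24 ± 0.707) and CCND2 (2.56 ± 0.186), as CPM per kilobase with SD (n = 3). CDKN1B and RB1 were neighbours whose difference was less than the sum of their SDs. In knockdown CDKN1B (36.9 ± 1.89) stood level with CDK2 (35.4 ± 0.724), whose libraries overlapped, and CDK6 (20.6 ± 0.334) approached RB1 (24.9 ± 0.741). The place of CDKN1B in this order rests on its canonical transcript of 2411 nt, while its longest annotated transcript has 4335 nt. With the longest transcript of each gene, CDKN1B was at 0.397 of the level of CDK2 in control and 0.672 in knockdown, so it did not reach CDK2. Among the 13250 tested genes with a transcript length, CCND1 was at percentile 95.8 of the control level per kilobase and CCND2 at percentile 25.3.

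Overlapping genes bear on some of these values, since the strand setting is unknown and reads of 2 genes on opposite strands may then be mixed. CCNE2 shares 1629 nt of exon with INTS8 on the other strand, and INTS8 was more abundant (45.7 ± 3.51 CPM in control and 44.6 ± 1.42 in knockdown, ± SD over 3 libraries a group; adjusted p by edgeR 0.934). CDK4 shares 1369 nt with TSPAN31, which averaged 15.7 ± 1.23 CPM in the controls against 13.8 ± 0.377 in the knockdown (± SD over 3 libraries a group; adjusted p by edgeR 0.152). CCND1 shares 497 nt with LTO1, at 30.6 ± 0.834 and 26.3 ± 1.42 CPM (SD, n = 3 each). CCND2 shares 999 nt with a protein-coding gene model on its own strand and CDK2 shares 565 nt with a noncoding one on the other strand, and neither model has a row of its own in the count table. Whether reads of these models entered the values of CCND2 and CDK2 was not tested. Reads of INTS8 counted for CCNE2, if any, cannot be told apart from its own.

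The other genes of the RB pathway were read from lists written by hand. RBL1 (p107), itself known as an E2F target, rose slightly from 71.4 ± 1.84 to 77.1 ± 2.64 CPM (± SD over 3 libraries a group; log2 change 0.14, edgeR adjusted p 0.0149). It missed the threshold in DESeq2's Wald test, without control replicate 1 and without knockdown replicate 2. RBL2 (p130) averaged 58.1 ± 2.12 CPM in the controls against 52.8 ± 1.82 in the knockdown (± SD over 3 libraries a group; adjusted p by edgeR 0.0819). Of the 10 E2F and DP genes, 3 rose and 3 fell, beside 19.3% and 19.2% of all tested genes, with a median log2 fold change of 0.05 against -0.00 for all tested genes. The activators E2F1 (log2 fold change -0.24, edgeR adjusted p 0.00021) and E2F2 (-0.52, edgeR adjusted p 4.18e-06) fell, as did their partner TFDP1 (-0.22, edgeR adjusted p 6.88e-05). The genes that rose were E2F6 (0.21, edgeR adjusted p 0.00482), E2F7 (0.25, edgeR adjusted p 0.0115) and E2F8 (0.26, edgeR adjusted p 0.00171). E2F3, another activator, averaged 83.8 ± 2.604 CPM in the controls against 76.6 ± 0.745 in the knockdown (± SD over 3 libraries a group; adjusted p by edgeR 0.0666). E2F4 (-0.00), E2F5 (0.14, edgeR adjusted p 0.235) and TFDP2 (0.10, edgeR adjusted p 0.181) did not pass either. No split of the list by function is read from these values.

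Among the 6 other CDK inhibitors, 1 fell and 0 rose. Of all tested genes, 19.2% passed downward, 19.3% upward and 38.5% in either direction. CDKN2A, which encodes the CDK4 and CDK6 inhibitor p16 and, from another frame, ARF, fell from 64.5 ± 2.10 to 48.3 ± 2.28 CPM (± SD over 3 libraries a group; log2 change -0.39, edgeR adjusted p 4.92e-06). CDKN1A, the p21 gene and a p53 target, averaged 16.6 ± 1.05 CPM in the controls against 15.8 ± 1.74 in the knockdown (SD, n = 3 each), with a 95% interval of -0.23 to 0.15 for the log2 fold change. CDKN2B, CDKN2C, CDKN2D and CDKN1C had log2 fold changes of 0.14, -0.05, -0.18 and -0.09, and their edgeR adjusted p-values were 0.268 or more. In a list of 6 genes, 0 rises is near the share of all tested genes, so nothing particular to CDKN1B is read from it. Differences between CDKN1B and these inhibitors were not tested.

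Of the 11 regulators of CDK activity, 3 rose and 2 fell, with a median log2 fold change of -0.04, a share near the 38.5% of all tested genes that passed. CDC25B, a phosphatase that activates CDKs, rose from 239 ± 3.53 to 363 ± 6.34 CPM (± SD over 3 libraries a group; log2 change 0.63 ± 0.03 SE, edgeR adjusted p 1.98e-11). CDC25C (0.19) and the inhibitory kinase WEE1 (0.13) rose by less, and PKMYT1 (-0.21), a kinase that also inhibits CDK1, and the phosphatase gene CDKN3 (-0.16) fell. By the Wald test of DESeq2, or without control replicate 1 or knockdown replicate 2, 2 of the 11 passed.

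Of the 15 genes for turnover of cyclin D, cyclin E and p27, 2 rose and 2 fell, with a median log2 fold change of 0.02, a smaller share than the 38.5% of all tested genes that passed, so the genes named here do not mark out the list. FBXO31, an F-box protein known to bind cyclin D1, rose (0.29, edgeR adjusted p 0.000441), and so did the scaffold CUL1 (0.18, edgeR adjusted p 0.000218). UBAC1, a subunit of the KPC ligase that acts on p27 in the cytoplasm, fell from 59.2 ± 5.05 to 44.2 ± 0.730 CPM (± SD over 3 libraries a group; log2 change -0.39, edgeR adjusted p 1.91e-05), and RBX1, the RING subunit, fell by 0.14 on the log2 scale (edgeR adjusted p 0.0334). SKP2 and CKS1B, which together direct p27 to the SCF ligase, had log2 fold changes of -0.07 (edgeR adjusted p 0.248) and -0.12 (edgeR adjusted p 0.0682). These 2 genes were chosen after their values were seen.

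Downstream of E2F, the G1/S and S-phase list of 37 genes had 18 lower, 1 higher and 18 not past the threshold, with a median log2 fold change of -0.12. Of all tested genes, 19.2% were lower and 19.3% higher, with a median of -0.00. The list holds genes for DNA replication, nucleotide synthesis and S-phase control. It is the class whose fall was used to choose the set, so its count, its median and its genes are a description and support nothing. MCM5, a subunit of the replicative helicase, averaged 176.7 ± 3.01 CPM in the controls against 142 ± 3.66 in the knockdown (SD, n = 3 each), a log2 fold change of -0.28 ± 0.04 (SE). PCNA, the sliding clamp of DNA polymerases, was lower, with CPM of 571, 561 and 548 in the control libraries and 451, 461 and 466 in the knockdown libraries (log2 fold change -0.25 ± 0.03 SE). UNG, which removes uracil from DNA, had a log2 fold change of -0.32 ± 0.04 (SE). POLA1, a subunit of the polymerase that starts new strands, was the gene past the threshold upward, at 0.11 ± 0.04 (SE), and several alternatives left no such gene. Of the genes with a promoter entry, 11 of 20 with the E2F word shown above and 5 of 11 without it were past the threshold downward. Their median log2 fold changes were close, at -0.109 and -0.116, and 27 of the 31 genes held the E2F word without its first letter.

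Genes that act after S phase had more rises than falls. In the G2 and mitosis list of 22 genes, 13 rose, 1 fell and 8 did not pass, beside 19.3% higher and 19.2% lower among all tested genes, and the median log2 fold change was 0.18 against -0.00. KIF23, a kinesin of cytokinesis, rose from 154.7 ± 1.39 to 203 ± 1.61 CPM (± SD over 3 libraries a group; log2 change 0.42, edgeR adjusted p 7.11e-09). The mitotic kinase AURKA (0.37, edgeR adjusted p 3.99e-08), the kinesin KIF20A (0.33, edgeR adjusted p 5.56e-07) and the topoisomerase TOP2A (0.25, edgeR adjusted p 4.45e-06) also rose. BIRC5, which encodes survivin of the chromosomal passenger complex, fell by 0.25 on the log2 scale (edgeR adjusted p 1.45e-05). Among those with a promoter entry, 7 of 11 genes with the CHR letters and 3 of 6 without them rose, with median log2 fold changes of 0.184 and 0.156.

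In the list of 5 genes made of later cyclins and CDK1, 4 were tested and 2 rose, beside 19.3% of all tested genes. CCNA2, the cyclin of S and G2 phase, averaged 191 ± 5.84 CPM in the controls against 222 ± 2.49 in the knockdown (± SD over 3 libraries a group; log2 change 0.25, edgeR adjusted p 7.6e-06). CCNB1, a mitotic cyclin, rose by less (0.11, edgeR adjusted p 0.0112). CCNB2 (-0.03, edgeR adjusted p 0.591) and their kinase CDK1 (0.04, edgeR adjusted p 0.409) did not pass, and the germline cyclin CCNA1, under 1 CPM on average, was not tested. In the list of 8 MuvB genes and their partners, FOXM1 rose (0.17, edgeR adjusted p 0.000118), and RBBP4 (-0.11, edgeR adjusted p 0.0155) and MYBL2 (-0.10, edgeR adjusted p 0.0349) fell, a share close to the 38.5% of all tested genes. FOXM1 and MYBL2 are both known as partners of MuvB on mitotic promoters, and without control replicate 2 only 1 of the 8 genes passed.

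**Figure D3:**
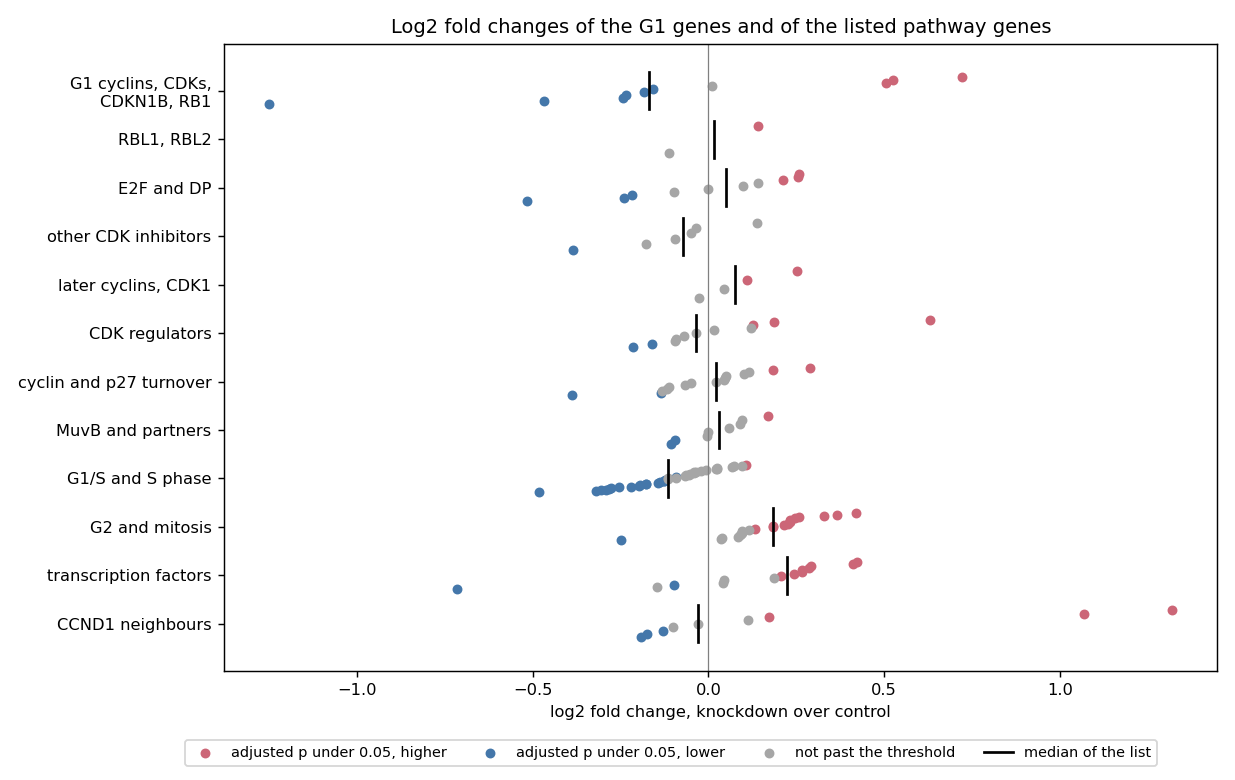
Log2 fold change of knockdown over control for each tested gene of the set and of the pathway lists, 1 point per gene, red where higher and blue where lower at an edgeR adjusted p under 0.05, grey otherwise, with the list's median as a black bar. The G1/S and S-phase genes lie mostly left of 0 (median -0.12) and the G2 and mitosis genes mostly right of it (median 0.18).

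Transcription factors known to act on CCND1, CDK4, CDKN1B or their relatives were also listed. Of these 14 genes, 8 rose and 2 fell, beside 19.3% and 19.2% of all tested genes, and the median log2 fold change was 0.22 against -0.00. MYC, whose E-box is shown in the CDK4 promoter above, rose from 309.8 ± 4.16 to 365 ± 8.57 CPM (± SD over 3 libraries a group; log2 change 0.27, edgeR adjusted p 1.84e-06). CDK4 itself was lower and CDK6, which also has the E-box, was higher. Whether MYC acted on either gene was not tested. The Wnt pathway factors TCF7 (0.42, edgeR adjusted p 3.09e-07), LEF1 (0.29, edgeR adjusted p 1.75e-05) and TCF7L2 (0.41, edgeR adjusted p 2.65e-05) rose, and their coactivator CTNNB1 fell slightly (-0.10, edgeR adjusted p 0.0102). JUN, an AP-1 factor that can act on CCND1, fell from 62.2 ± 1.36 to 37.1 ± 0.822 CPM (± SD over 3 libraries a group; log2 change -0.71, edgeR adjusted p 1.29e-09). The FOXO genes, whose products can raise CDKN1B, had log2 fold changes of -0.15 (FOXO1), 0.04 (FOXO3) and 0.19 (FOXO4), with edgeR adjusted p-values of 0.121, 0.554 and 0.206, and were named after their values were seen.

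CCND1 lies in a gene-rich stretch of chromosome 11 that is often amplified together in tumours, so its neighbours were read in the same libraries. Of 10 listed neighbours, 9 were tested, and 3 rose and 3 fell, beside 19.3% and 19.2% of all tested genes. FGF19, whose start lies 62.9 kb from that of CCND1 on GRCh37, was at 11.3, 11.6 and 11.001 CPM in control and at 27.4, 27.5 and 27.99 CPM in knockdown. This gene for a hormone-like growth factor thus rose 2.50-fold (log2 fold change 1.32 ± 0.07 SE, edgeR adjusted p 1e-10). FGF3, a growth factor gene 178.3 kb away, was at 9.69, 9.63 and 11.001 CPM in control and 19.3, 22.7 and 20.1 CPM in knockdown (log2 fold change 1.07 ± 0.09 SE, edgeR adjusted p 3.17e-08). Both had a larger log2 fold change than CCND1, although the difference from CCND1 was not tested, and FGF4 between them had no counts in any library. LTO1, which lies between CCND1 and FGF19, fell by 0.19 on the log2 scale (edgeR adjusted p 0.0209), so the rise was not shared by every gene of the stretch. Farther out, FADD rose (0.17, edgeR adjusted p 0.0434) with groups that overlapped in CPM, and ANO1 (-0.18, edgeR adjusted p 0.00734) and CTTN (-0.13, edgeR adjusted p 0.0143) fell.

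**Figure D4:**
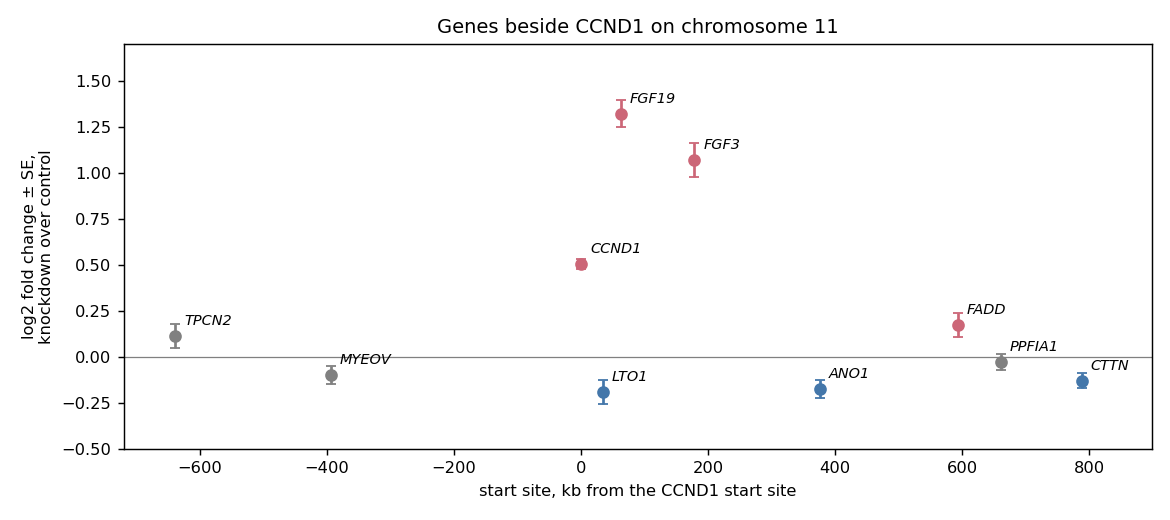
Log2 fold change with SE of the tested genes around CCND1 against the distance of their start site from that of CCND1, in kb, with red for higher, blue for lower and grey for not past the threshold. FGF19 (1.32) and FGF3 (1.07) stand above CCND1 (0.51), while LTO1 between CCND1 and FGF19 is at -0.19.

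The 5 genes whose log2 CPM followed that of CCND1 most closely over the 6 libraries, among the 6191 genes averaging 500 counts or more, were ITGB1, TULP3, RUNX2, FOXM1 and MPZL2, each with a Pearson correlation of 0.999. These libraries form 2 groups that share their conditions, so the likeness is mostly the step between control and knockdown and is given as a description. The size of that step differed among them, with log2 fold changes of 0.47 for ITGB1, 1.35 for TULP3, 0.47 for RUNX2, 0.17 for FOXM1 and 1.15 for MPZL2.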

How the data were processed

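RNA-seq of total RNA was measured in 6 libraries of SW403 cells, 3 control and 3 IRS2 knockdown, grouped by their titles. The authors deposited whole-number counts per gene symbol and a second table of normalized signal, which equals the counts divided by 1 constant per library. The submitters' processing notes name STAR 2.6.1a, Salmon, DESeq2 and the build hg19 without saying which step each served. The annotation and strand setting are not given in the sources used here. No column of per-sample values was set aside (0 columns).

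Counts were tested across all genes that passed filterByExpr with edgeR 4.0.16 in R 4.3.3 (TMM factors, quasi-likelihood F-test, group as the only term), with Benjamini-Hochberg adjustment over all tested genes and a threshold of 0.05. CPM values are counts scaled to each library's total. Levels per kilobase divide CPM by the length of the canonical GENCODE version 44 transcript on GRCh37. The SE is the absolute log2 fold change over the square root of F, and intervals are 95% intervals from the same fit. With 3 libraries a group, an exact permutation test of 1 gene cannot go below a two-sided p of 0.1. The fit was tested on simulated data with known fold changes.

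The genes described and the pathway lists were chosen with earlier results of these data known, and the lists come from general knowledge of the pathway. Genes named were all 10 of the set, IRS2, MCM5, every gene of the 3 short lists (pocket proteins, inhibitors, later cyclins), up to 4 genes with the smallest p in each direction of the other lists, the 5 genes most like CCND1, and genes that overlap one of the set. E2F3, E2F4, E2F5, TFDP2, SKP2, CKS1B, FGF4 and the FOXO genes fall outside this rule and were named after their values were seen. One gene that this rule names is not reported here. Alternatives were other scalings (DESeq2 size factors, upper quartile, library size), other filters, the Wald test of DESeq2 1.42.0, limma 3.58.1 (voom, and log2 of the deposited signal plus 1), thinned counts, the replicate number as a block, removal of a length and GC trend, and each library left out. Promoter letters were read from a RefSeq table on GRCh38.p14.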

Additional observations from a re-analysis of the deposited data

How the results depend on the processing

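Over 17 alternatives, 163 of 170 log2 fold changes of the 10 genes kept their call, with RB1 never past the threshold at -0.02 to 0.03; 3 genes were higher in each, and 4 to 6 lower. The exceptions were CCND3 without control replicate 1 (-0.10) or knockdown replicate 2 (-0.14), and CCNE2 by DESeq2's Wald test (-0.24) and without control replicate 1 (-0.24), control replicate 3 (-0.16), knockdown replicate 1 (-0.23) or knockdown replicate 2 (-0.21). Replicate numbers did not pair the libraries (correlations 0.04, -0.01 and -0.10). With the replicate number as a block, 2455 genes were higher and 2407 lower, 3 and 6 of the 10 genes passed, 3 CDK regulators passed, and 0 G1/S genes were higher. Counts of genes past the threshold moved by over 1.5 times in the following lists, and the cause was not tested. RBL1 and RBL2 gave 0 by DESeq2's Wald test, 2 with the length and GC trend removed, a mean of at least 50 counts or upper-quartile factors, and 0 to 1 with 1 library left out. CDK regulators gave 2 by the Wald test, 3 with the count minimum or upper-quartile factors, and 2 to 4 with 1 library left out. Turnover genes gave 7 with library size alone, the count minimum or upper-quartile factors. MuvB genes gave 1 to 3 with 1 library left out. G1/S genes called higher were 0 by the Wald test, library size alone or upper-quartile factors, 3 with the trend removed, with limma on the deposited values or with no filter, and 0 to 2 with 1 library left out. With CPM not divided by length, shares in control and knockdown were 76.6% and 84.6% for CCND1, 36.0% and 32.5% for CCNE1, and 44.6% and 60.1% for CDK6; with the longest transcript they were 66.5% and 76.3% for CCND1 and 49.0% and 45.1% for CCNE1. Family sums and ratios under other lengths were chosen after seeing the data: without length, the CDK4 and CDK6 sum in knockdown over control turned from 0.948 to 1.198. All knockdown libraries were deeper than the controls; with counts thinned to the smallest library, the 10 genes kept their calls. CCND2 rests on 93 to 212 counts per library.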

Other observations

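Some genes share the genomic span of a G1 gene without sharing its exons. MARCHF9, on the strand opposite to CDK4, averaged 10.5 ± 0.565 CPM in the controls against 6.37 ± 0.339 in the knockdown (± SD over 3 libraries a group; log2 change -0.69 ± 0.11 SE, edgeR adjusted p 7.45e-05). NDUFAF6, opposite to CCNE2 and named for its part in assembling mitochondrial complex I, averaged 22.7 ± 0.880 CPM in the controls against 16.6 ± 1.35 in the knockdown (± SD over 3 libraries a group; log2 change -0.43 ± 0.08 SE, edgeR adjusted p 0.000189). Both fell, as 19.2% of all tested genes did. GPR19 beside CDKN1B (edgeR adjusted p 0.6585) and RCBTB2 within RB1 (edgeR adjusted p 0.467) did not pass the threshold.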
